A study of Saccharomyces cerevisiae with 25 samples.

Results

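The strain compared here carried OAF1(L63S), a single codon change in the gene of a fatty acid-responsive transcription factor of the budding yeast Saccharomyces cerevisiae, and the comparison was with the wild type YFA1130. The members were the 5 libraries labelled with this genotype and the 5 labelled as YFA1130, 10 of the 25 RNA-seq libraries in the series, and their measured transcripts were described across pathways. Both strains were haploid MATa derivatives of BY4741, and both lacked LEU2, URA3 and MET15 (listed as MET17) and part of HIS3. Both descended from a strain in which FAA4 carried a GFP tag, and in both FAA4 was untagged again. In YFA1130 CRISPR-Swap had replaced the tagged allele. The OAF1(L63S) strain YFA1132 had in addition been through a deletion of OAF1 with KanMX, which was then replaced by the allele that encodes serine at residue 63. This serine is the allele of RM, a vineyard strain. Each genotype was 1 strain, so a change elsewhere in its genome cannot be told apart from the change in OAF1. Cells of both strains were grown in minimal medium with glucose and no added fatty acid and were harvested during growth. A second wild type, YFA1131, in which BY RGT2 had been put back in place of a KanMX deletion, gave 5 further libraries. The other strains carried OLE1(FAR) or RGT2(V539I).

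Oaf1 belongs to the zinc cluster family of transcription factors. It binds DNA together with its partner Pip2 at oleate response elements, which are paired CGG triplets in the promoters of genes for peroxisomes and for the oxidation of fatty acids. Bound fatty acid such as oleate activates Oaf1, and the genes are held low in glucose. In yeast, fatty acids are oxidized in peroxisomes and not in mitochondria. Residue 63 lies near the amino end of Oaf1, next to the zinc cluster that contacts DNA. In sacCer3, OAF1 (YAL051W) is a gene of a single exon on the forward strand of chromosome I, 48564 to 51707, and the edited base is in its coding sequence. The change is T48751C, counted along the chromosome, and it turns codon 63 from TTG to TCG. The site is shown because it is the whole difference intended between the strains. The 41 bases of the reference around it, chrI:48731-48771, with the codon in capitals, are:
OAF1 codon 63: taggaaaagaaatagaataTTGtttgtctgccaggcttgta

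The values start from transcript counts that kallisto estimated. Levels are given in CPM, counts set relative to the TMM-scaled size of each library, and differences as log2 fold changes of OAF1(L63S) against YFA1130. A difference is called changed, higher or lower where edgeR's quasi-likelihood test passed a false discovery rate (FDR) of 10% over all genes tested. Total counts ranged from 9216531 to 14644996 per library. The MATa genes STE2, at 1204 to 1312 CPM, BAR1, STE6 and ASG7 were present in all 10 libraries. Of the genes listed for alpha cells, MF(ALPHA)1 was at most at 2.37 CPM, MF(ALPHA)2 at 0.168 and STE3 at 6.25. SAG1, also listed for alpha cells, was nevertheless at 37.8 to 47.9 CPM in these libraries. The deleted genes LEU2, URA3 and MET17 were at 0. The MATa pheromone genes MFA1 and MFA2 were also listed at 0. Where values of single libraries are given, the OAF1(L63S) cultures come in the order 2D, 2F, 2B, 2E and 2A and the YFA1130 cultures in the order 1A, 1G, 1E, 1F and 1D, by RNA isolation batch from 1 to 5. In RNA from a whole culture, fewer expressing cells and less RNA per cell cannot be told apart.

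The library labelled OAF1(L63S) culture 2A stood apart from the other 4 of its label. It had POX1 at 1.58 CPM against 17 to 22.8, MGA2 at 289 CPM against 101 to 128 and IZH4 at 47.6 CPM against 2.63 to 3.67. In 4 of the libraries labelled OLE1(FAR) these genes were at 0.419 to 2.00, 281 to 315 and 45.3 to 50.7 CPM, and culture 2A lay inside each range. Culture 3C, labelled OLE1(FAR), had POX1 at 28.4, MGA2 at 119 and IZH4 at 2.43 CPM. The harvest batches bear on the same pair of libraries. In the 10 libraries of YFA1131 and RGT2(V539I), 827 genes were higher and 808 lower in harvest batch 1 than in later harvests at an FDR of 10% in edgeR. A score was taken in every library as the mean log2 CPM of the first set less that of the second. Other libraries of harvest batch 1 scored between -0.776 and -0.616. This range and that of the later batches include libraries used to choose the genes. Of the libraries not so used, besides cultures 2A and 3C, those of harvest batch 1 were cultures 2B and 1A, at -0.776 and -0.728. Those of later batches scored from -1.34 to -1.09. Culture 2A, recorded in that batch, scored -1.20, within the range of -1.39 to -1.09 of the later batches, and culture 3C, recorded in harvest batch 2, scored -0.713. Which culture each of these libraries came from was not tested. The labels were kept, and results are given without culture 2A where nothing else is said. Values with all libraries are given for the numbers of genes called and for part of the genes.

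**Figure D1:**
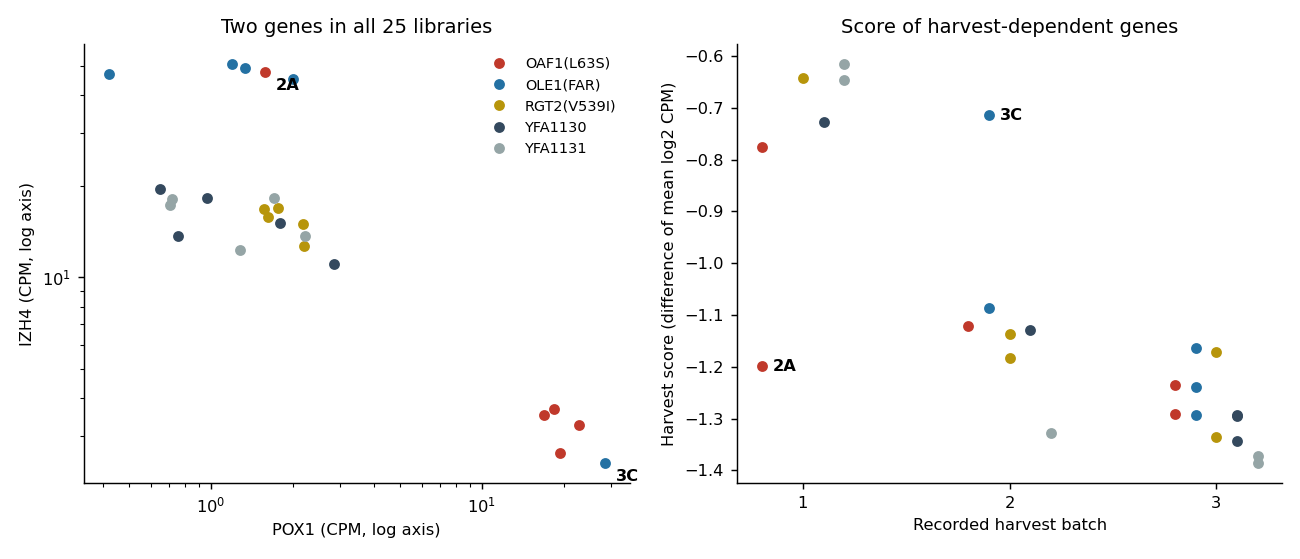
Left, level of IZH4 against level of POX1 (CPM, log axes) in each of the 25 libraries, coloured by strain. Right, harvest score of each library by recorded harvest batch. Culture 2A, at 1.58 CPM of POX1 and 47.6 of IZH4, lies among the OLE1(FAR) libraries, and culture 3C, at 28.4 and 2.43, lies beside the other OAF1(L63S) libraries.

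Without culture 2A, 72 of 5717 genes tested differed between OAF1(L63S) and YFA1130, which is 1.26% of them. Of these, 38 were higher (0.665%) and 34 lower (0.595%) in the edited strain. With all 25 libraries the numbers were 67 of 5713 genes (1.17%), 32 higher (0.56%) and 35 lower (0.613%). Of the genes called in either fit, 61 were called in both, all with the same sign, which is 91% of the calls with all libraries and 84.7% of the calls without culture 2A. In the fit of all libraries POX1 had a log2 fold change of 3.63, PHO84 1.47, FAT3 1.43, EEB1 0.82 and PEX11 0.63. ANT1 had 0.56, SPS19 0.55, ARE2 and FAA2 0.54 each and PIP2 0.42. Of the falls, COS10 had -0.89, BIO2 -0.85, PLB2 -0.56, TIP1 -0.46 and FAS1 -0.34. Each of these was called in that fit. With surrogate variables in the fit, IZH4 had a log2 fold change of -2.13 with all libraries and -2.17 without culture 2A, and MGA2 had -0.78 in both. With none, IZH4 had -1.20 and -2.16 and MGA2 -0.56 and -0.77, and 10 genes were called with all libraries and 22 without culture 2A. With genotype as the only term and all libraries, IZH4 had -0.34 and MGA2 -0.45, and neither was called. With a further library left out, 14 to 60 genes were called, and the lowest number was without culture 1G. The median log2 fold change of all genes was 0.00 without culture 2A and the median standard error 0.059. By raw level, 36 genes were higher in each of the 4 remaining OAF1(L63S) libraries than in all 5 YFA1130 libraries and 48 were lower in each, together 1.47% of the genes tested. This is the background for the groups described below as not overlapping, which describe the levels and are not evidence of a difference. Outside repeats and at 5 CPM or more, the largest rises were POX1 of fatty acid oxidation, PHO84 of phosphate uptake and FAT3 of fatty acid uptake. Next by size came YHR140W, YGR035C, PRM7, TPO4 and BSC1, and then EEB1 of ester formation and PEX11. On the lower side stood IZH4, COS10, BIO2, INA1 and MGA2.

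Oleate response elements were looked for first, since they are the sequences Oaf1 and Pip2 are known to bind. The motif searched was CGGNNNTNA, then 9 to 12 bases, then CCG, on either strand of the 500 bases before each start codon in sacCer3. Only the first of overlapping matches was kept. The motif was present before 105 of 5572 genes tested that had a sequence, or 1.88%. Among the genes higher without culture 2A it was present before 12 of 38, or 31.6%, and among the lower genes before 0 of 33. With all libraries these were 11 of 32 (34.4%) and 0 of 34. The 12 higher genes were POX1, FAT3, YGR035C, TPO4, BSC1, EEB1, PEX11, SPS19, FAA2, PIP2, TES1 and ACS2, and POX1 and EEB1 each had a pair of matches. They are shown because they are the promoters that joined the motif and a higher transcript. Each is written along the strand of its gene with 10 bases on either side and the fixed letters of the motif in capitals, and the number after the name is the distance in bases from the match to the start codon.
POX1, 290, chrVII:107836-107878: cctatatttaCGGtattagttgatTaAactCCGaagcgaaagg
POX1, 253, chrVII:107873-107915: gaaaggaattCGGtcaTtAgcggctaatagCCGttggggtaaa
PEX11, 113, chrXV:48746-48788: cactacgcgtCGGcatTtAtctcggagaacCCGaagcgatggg
FAA2, 164, chrV:184345-184387: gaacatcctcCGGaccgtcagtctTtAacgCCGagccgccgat
SPS19, 143, chrXIV:259402-259445: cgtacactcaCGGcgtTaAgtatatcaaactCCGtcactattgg
TES1, 108, chrX:468379-468421: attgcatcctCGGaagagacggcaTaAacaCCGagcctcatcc
PIP2, 136, chrXV:1023338-1023378: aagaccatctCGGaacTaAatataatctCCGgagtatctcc
EEB1, 179, chrXVI:369610-369652: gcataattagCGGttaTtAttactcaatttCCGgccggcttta
EEB1, 155, chrXVI:369586-369627: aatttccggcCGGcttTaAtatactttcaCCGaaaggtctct
FAT3, 438, chrXI:91964-92004: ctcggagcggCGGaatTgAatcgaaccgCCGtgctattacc
TPO4, 414, chrXV:836835-836878: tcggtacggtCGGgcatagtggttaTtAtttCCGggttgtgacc
YGR035C, 432, chrVII:557844-557887: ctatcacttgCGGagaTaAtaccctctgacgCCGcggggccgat
BSC1, 353, chrIV:385930-385971: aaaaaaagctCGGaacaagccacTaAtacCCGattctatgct
ACS2, 306, chrXII:447871-447912: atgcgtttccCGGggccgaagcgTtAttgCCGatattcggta

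Most genes with a match were not called. The other 93 tested genes with a match were not called, and their log2 fold changes ran from -0.31 to 0.30, 50 of them positive and 43 negative, with a median of 0.02. Within 200 bases of the start codon the motif was present before 39 genes, of which 6 were higher, and from 201 to 500 bases it was present before 66, of which 6 were higher. The share called higher among all genes was 0.665%. Of the 22 genes listed for peroxisomal beta-oxidation, 13 had a match. Of these, 12 were tested and 5 were higher. POT1, the thiolase of the pathway, had a match 166 bases before its start codon, near the distance seen in FAA2, and CTA1, the peroxisomal catalase, had one as well. Both are shown as matches before genes with no call.
POT1, 166, chrIX:41600-41642: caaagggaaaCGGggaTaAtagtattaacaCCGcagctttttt
CTA1, 186, chrIV:969856-969899: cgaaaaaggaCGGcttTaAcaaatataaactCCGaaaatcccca

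**Figure D2:**
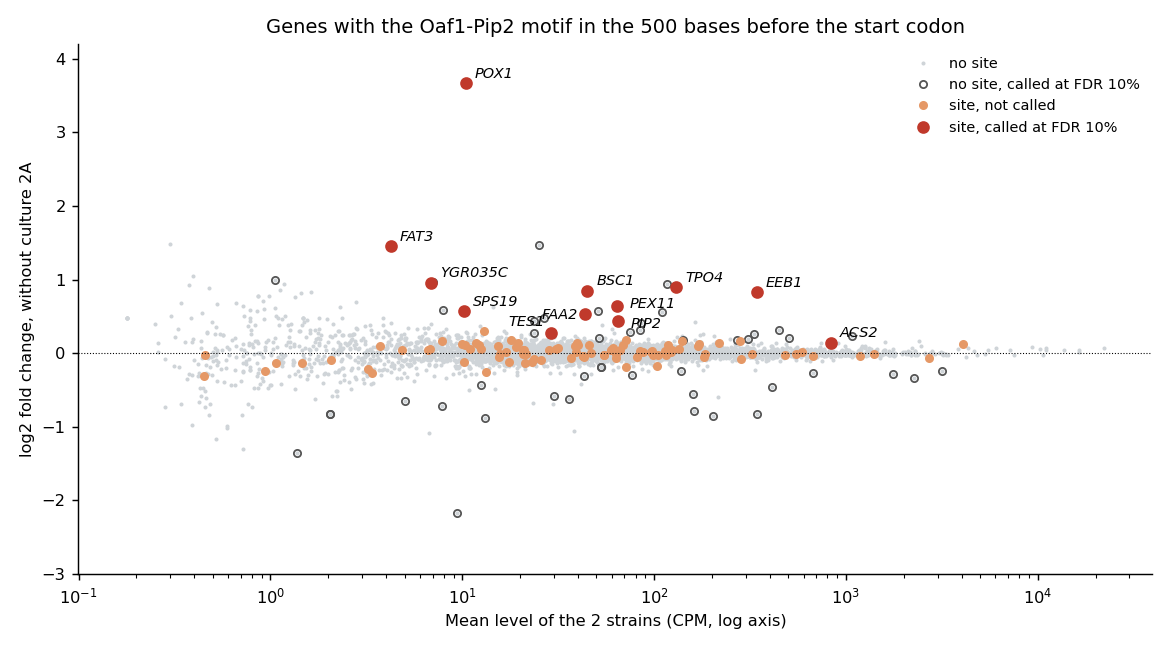
Log2 fold change of OAF1(L63S) against YFA1130 without culture 2A against mean level (CPM, log axis) for the genes tested. Transposon and Y' genes without the searched motif were not drawn. Coloured points are genes with the searched motif in the 500 bases before the start codon, of which 12 were called higher and 0 lower. The other 93 lie between -0.31 and 0.30.

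The genes for the regulators themselves came next. OAF1 transcript was at 55.9, 56.8, 63.3, 59.0 and 57.2 CPM in the edited strain and at 60.9, 56.4, 57.4, 55.4 and 58.1 in YFA1130. The groups overlapped, and edgeR gave 0.03 on the log2 scale with a standard error of 0.049 (adjusted p = 1). Reads over codon 63 were not analysed here, so this level checks the amount of transcript and not the edit. PIP2, which encodes the partner of Oaf1, was at 74.6, 74.6, 72.3, 75.8 and 57.5 CPM against 57.4, 46.3, 55.7, 55.2 and 60.7. Without culture 2A every edited library was above every library of both wild types. PIP2 rose by 0.44 on the log2 scale (standard error 0.072, adjusted p = 0.00193). ADR1, a glucose-repressed activator that works beside Oaf1 and Pip2, had a log2 fold change of 0.12 (adjusted p = 0.978), and OAF3, a repressor of oleate-responsive genes, had -0.01 (adjusted p = 1). Thus 1 of the 4 listed regulators was called, against 1.26% of all genes.

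Peroxisomal beta-oxidation was the list with the most calls. Like the other lists it was chosen with earlier results of these data known, and it also held genes beside the pathway, such as PEX11 and ANT1. Of the 22 listed, 21 were tested, 7 were called higher against 0.665% of all genes, and none was called lower. All 21 had a positive log2 fold change without culture 2A, as did 3030 of the 5717 genes tested. The median was 0.15 against 0.00 for all genes. POX1, which encodes the acyl-CoA oxidase of the first step of the pathway, rose from 1.40 ± 0.920 CPM (SD, n = 5) in YFA1130 to 19.4 ± 2.49 (SD, n = 4), which was 12.7-fold in the fit. Its level nevertheless stayed low beside those of PEX11 and FAA2. PEX11, a membrane protein that drives the division of peroxisomes, was at 82.1, 75.3, 73.2, 82.2 and 55.5 CPM against 47.4, 47.9, 47.7, 55.5 and 52.5. The groups did not overlap without culture 2A, and PEX11 rose by 0.64 (standard error 0.049, adjusted p = 5.71e-07), one of the smallest adjusted p-values in the comparison. ANT1, which brings ATP into the peroxisome for the activation of fatty acids, was at 54.6, 62.5, 65.7, 62.2 and 41.1 CPM against 43.4, 38.2, 43.6, 41.7 and 38.8. It rose by 0.57 (standard error 0.056, adjusted p = 1.48e-05), again with no overlap once culture 2A was left out.

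FAA2, the acyl-CoA synthetase that activates medium-chain fatty acids in the peroxisome, was at 54.4, 55.2, 44.6, 51.7 and 38.9 CPM against 37.9, 33.0, 36.0, 37.3 and 34.5. Here even culture 2A was above the highest wild-type library. FAA2 rose by 0.54 (standard error 0.065, adjusted p = 8.97e-05). SPS19 encodes the dienoyl-CoA reductase needed for unsaturated fatty acids. It was at 12.4, 11.6, 16.2, 9.45 and 6.22 CPM against 12.6, 7.23, 5.78, 7.15 and 7.55, and the groups overlapped through culture 1A, the only YFA1130 library of harvest batch 1. SPS19 rose by 0.57 (standard error 0.085, adjusted p = 0.000783). TES1, a peroxisomal acyl-CoA thioesterase, and CIT2, the peroxisomal citrate synthase, rose by 0.27 (adjusted p = 0.0727) and 0.26 (adjusted p = 0.0279), both with overlap. CIT2 in particular varied more within the wild type, from 144 to 532 CPM, than between the strains. It was higher in 2 of 5 pairs by isolation batch, and its fitted value was 0.08 with only both strains and genotype in the fit and -0.034 in that fit with culture 2A. TES1 was called in 1 of 9 fits that each left out a further library.

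The other 14 tested members of the list were not called. ECI1, an isomerase for unsaturated chains, had the largest value of these at 0.30 (standard error 0.095, adjusted p = 0.285), followed by PCD1 at 0.25 and LPX1, a peroxisomal lipase, at 0.20. FOX2, the multifunctional enzyme of the second and the third step, was at 0.10, CTA1 at 0.04, and PXA1 and PXA2, the subunits of the transporter that brings activated long-chain fatty acids into the peroxisome, at 0.13 and 0.06. POT1 was not tested because a YFA1130 library had no count. It was at 1.10, 0.699, 1.17, 0.487 and 0.0876 CPM against 0.551, 0, 0.0964, 0.252 and 0.515, and these groups overlapped near the floor of detection. Of 29 tested genes of peroxisome biogenesis, the peroxins that import proteins into the organelle and assemble it apart from PEX11, none was called, and their values ran from -0.17 for PEX31 to 0.21 for PEX14 with a median of 0.02.

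**Figure D3:**
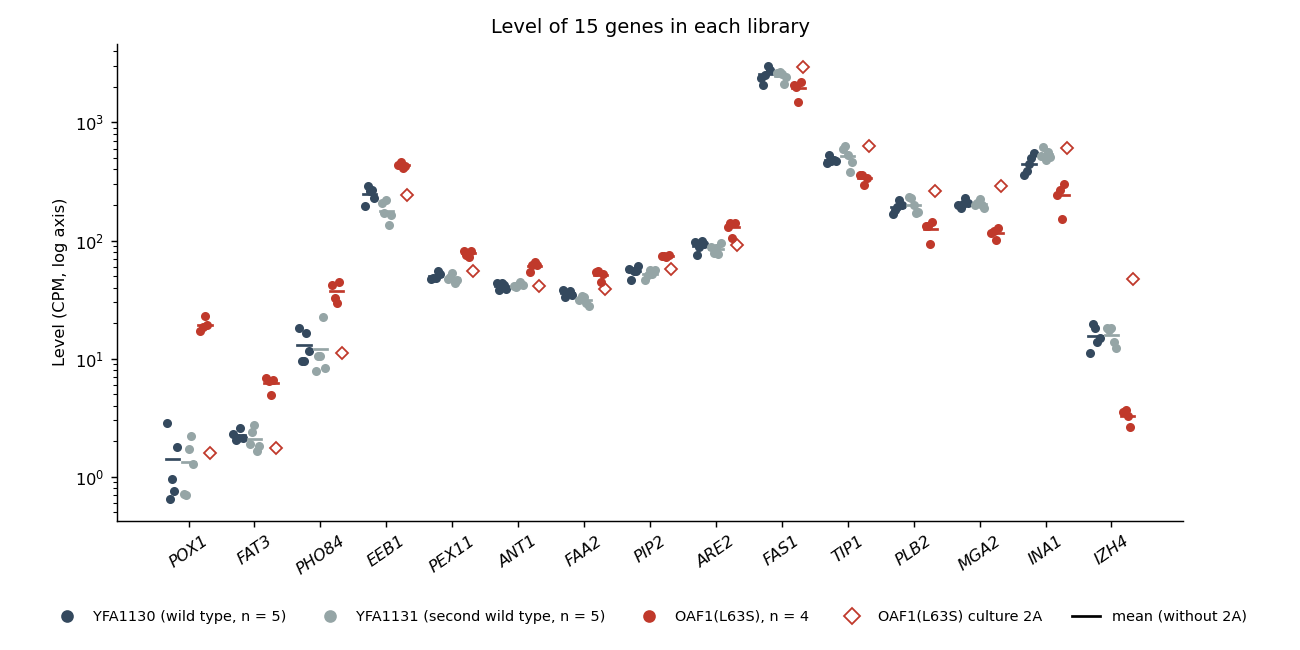
Level in CPM (log axes) of 15 genes in each library of OAF1(L63S), YFA1130 and YFA1131, with a bar at the mean of each group and culture 2A marked by its own symbol. POX1, FAT3, PEX11, ANT1 and PIP2 are above both wild types and IZH4 and MGA2 below both, and in each case culture 2A lies away from the other 4 libraries of its label.

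Of 10 genes for fatty acid uptake and activation, 2 were called higher (0.665% of all genes) and 1 lower (0.595%), with a median of 0.03. FAT3, which is required for fatty acid uptake, was at 6.91, 6.47, 4.92, 6.62 and 1.75 CPM against 2.28, 2.04, 2.12, 2.61 and 2.14. Culture 2A had the lowest level of the 10 libraries and the other edited libraries the 4 highest. FAT3 rose by 1.46 on the log2 scale, or 2.74-fold (standard error 0.189, adjusted p = 0.000166). FAA4, the acyl-CoA synthetase that activates long-chain fatty acids taken up from the medium, was at 594 ± 91.2 CPM (SD, n = 4) against 743 ± 70.9 (SD, n = 5). It passed the test in the lower direction without culture 2A, at -0.26 (standard error 0.068, adjusted p = 0.0873), and missed it with all libraries (adjusted p = 0.108). With a further library left out FAA4 was called in 1 of 9 fits, and without OLE1(FAR) culture 3C its adjusted p was 0.00131. Its paralogs FAA1 and FAA3, whose products share the substrates of Faa4, had values of 314 and 137 CPM in the edited strain against 314 and 132 in YFA1130 (adjusted p = 1 each).

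In lipid storage and ester formation, 2 of 26 genes were called, both higher (0.665% of all genes), and the median was 0.01. EEB1 encodes an acyltransferase that joins ethanol to medium-chain fatty acids. It was at 440.0, 465, 414, 428 and 243 CPM against 194, 290.0, 265, 267 and 228. Without culture 2A the edited libraries were all above those of both wild types, where YFA1131 ranged from 135 to 220.1. EEB1 rose by 0.83, or 1.78-fold (standard error 0.088, adjusted p = 2.05e-05), and was the most abundant gene among the 15 largest rises. ARE2, which esterifies ergosterol for storage in lipid droplets, was at 131, 141, 105, 142 and 91.6 CPM against 97.1, 75.8, 87.9, 98.3 and 93.2. It rose by 0.55 (standard error 0.083, adjusted p = 0.000871), and the groups did not overlap without culture 2A.

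Of 19 genes of fatty acid synthesis and elongation, 3 were called lower (0.595% of all genes) and 1 higher (0.665%). In this list 13 had negative values, as did 2687 of the 5717 genes tested, and the median was -0.02. FAS1 and FAS2, the subunits of fatty acid synthase, had log2 fold changes of -0.33 (standard error 0.058, adjusted p = 0.00364) and -0.24 (standard error 0.056, adjusted p = 0.0586), and ACC1, the acetyl-CoA carboxylase that feeds them, -0.29 (standard error 0.060, adjusted p = 0.0205). FAS1 was at 2072, 1999, 1496, 2219.7 and 2939 CPM against 2376, 2076, 2523, 3027 and 2787. The groups overlapped for all 3 genes, since culture 1G, at 2076 CPM of FAS1, was low among the wild-type libraries and culture 2B was the lowest of the 10. ACS2, which makes the acetyl-CoA of nucleus and cytosol, was higher without culture 2A by 0.14 (adjusted p = 0.0701) and was not called with all libraries (adjusted p = 0.138). Without culture 2A, FAS1 was called in 6, ACC1 in 4, FAS2 in 0 and ACS2 in 0 when each of 9 further libraries was left out in turn.

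MGA2 encodes a membrane-anchored activator of the fatty acid desaturase gene OLE1. It fell by 0.78 (standard error 0.078, adjusted p = 1.48e-05), from 206 ± 14.8 CPM (SD, n = 5) to 116 ± 11.5 (SD, n = 4), with no overlap once culture 2A was left out. OLE1 itself was higher by 0.23 (standard error 0.056, adjusted p = 0.0711) while its groups overlapped, at 1273, 1204, 822, 1277 and 978 CPM against 793, 970.1, 994, 1219.9 and 1065. The lowest level in each strain was in a library of harvest batch 1. Among the 10 genes listed for this control no other was called, and the median was 0.00. SPT23, the paralog of MGA2, had no call, and OLE1 was called in 1 of 9 fits with a further library left out.

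The IZH genes encode membrane proteins that affect zinc and sterol homeostasis. IZH4 was at 3.51, 3.67, 3.25, 2.63 and 47.6 CPM against 11.1, 19.6, 18.3, 13.7 and 15.1, so that the 4 concordant libraries were the lowest and culture 2A the highest of the 10. IZH4 fell by 2.17 on the log2 scale (standard error 0.276, adjusted p = 0.00014), and the wild-type level was 4.50-fold that of the edited strain in the fit. IZH1 was at 69.7, 67.8, 69.9, 68.5 and 113 CPM against 92.4, 83.5, 74.2, 84.1 and 87.2. It fell by 0.29 (standard error 0.067, adjusted p = 0.0407), again with culture 2A above all others. IZH2 and IZH3 had values of -0.17 (adjusted p = 0.553) and -0.19 (adjusted p = 0.19). The zinc transporter gene ZRT1 was at 0.08, and no gene of the zinc response in the list of 12 was called beside IZH4 and IZH1.

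Sterol and membrane lipid genes changed at single members. In ergosterol synthesis 2 of 29 genes were called, both higher (0.665% of all genes). They were ERG3, a sterol desaturase, at 0.20 (standard error 0.037, adjusted p = 0.00776), and ERG8, a kinase of the mevalonate pathway, at 0.18 (standard error 0.039, adjusted p = 0.0282). The list had a median of 0.02. SUR1, which encodes a subunit of the enzyme that adds mannose to inositol sphingolipids, was at 99.9, 97.2, 99.7, 91.5 and 68.3 CPM against 83.7, 78.6, 62.6, 71.9 and 69.0. It rose by 0.41 (standard error 0.082, adjusted p = 0.0144) and was the single call among 26 sphingolipid genes (0.665% of all genes). PLB2, which encodes a lysophospholipase and stood outside the lists, was at 132, 134, 93, 145 and 261 CPM against 168, 182, 194, 220.0 and 201. PLB2 fell by 0.55 (standard error 0.059, adjusted p = 2.05e-05). ALE1, an acyltransferase for lysophospholipids, fell by 0.25 (standard error 0.046, adjusted p = 0.00703). None of the 27 genes for inositol and phospholipid synthesis was called, and their median was 0.02.

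PHO84 was the second largest rise. It encodes the high-affinity phosphate transporter and was at 42.1, 32.8, 29.4, 44.1 and 11.2 CPM against 18.1, 9.63, 9.54, 16.6 and 11.6. Every edited library except culture 2A was above every library of both wild types, of which the highest was at 22.7 CPM. PHO84 rose by 1.46, or 2.76-fold (standard error 0.114, adjusted p = 5.71e-07). The other members of the phosphate starvation list had smaller values or no call. PHO12, a secreted acid phosphatase, was called higher without culture 2A at 0.28 (adjusted p = 0.0848) and not with all libraries (adjusted p = 0.108), and with a further library left out in 1 of 9 fits. SPL2, which restrains low-affinity phosphate uptake, had a log2 fold change of 0.95 at a mean of 1.60 CPM (standard error 0.293, adjusted p = 0.244). PHO5, the main secreted acid phosphatase, had 0.30 (adjusted p = 0.113), and PHO89, a sodium-coupled phosphate transporter, was at -0.22. In the list of 16, 2 were called higher (0.665% of all genes) and 0 lower, with a median of 0.04. Estimated counts of PHO12 were not whole in 25 of 25 libraries, as they are where kallisto divides reads among similar genes.

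Central carbon metabolism had few calls and many small positive values. In the citric acid cycle IDH1, a subunit of isocitrate dehydrogenase, was the only call without culture 2A, at 0.18 (adjusted p = 0.0436). Of all genes 0.665% were called higher. With all libraries IDH1 was not called (adjusted p = 0.245). Without culture 2A, 17 of 18 genes of the cycle had positive values with a median of 0.13. Of all 5717 genes tested, 3030 were positive, with a median of 0.00. In the respiratory chain and ATP synthase 0 of 40 were called, 35 were positive, and the median was 0.08. In glycolysis and fermentation 0 of 27 were called and 23 were positive, at a median of 0.05. MDH2, the cytosolic malate dehydrogenase, rose by 0.29 (standard error 0.049, adjusted p = 0.00327). With CIT2 it was called higher among 12 genes of the glyoxylate cycle and gluconeogenesis, against 0.665% of all genes. The level of IDH1 also differed between harvest batches. It was at 409 CPM in culture 2B and 352 in culture 1A, both of harvest batch 1, and at 198 to 287 in the 7 other libraries besides culture 2A. The part of growth stage in these small values was not tested.

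**Figure D4:**
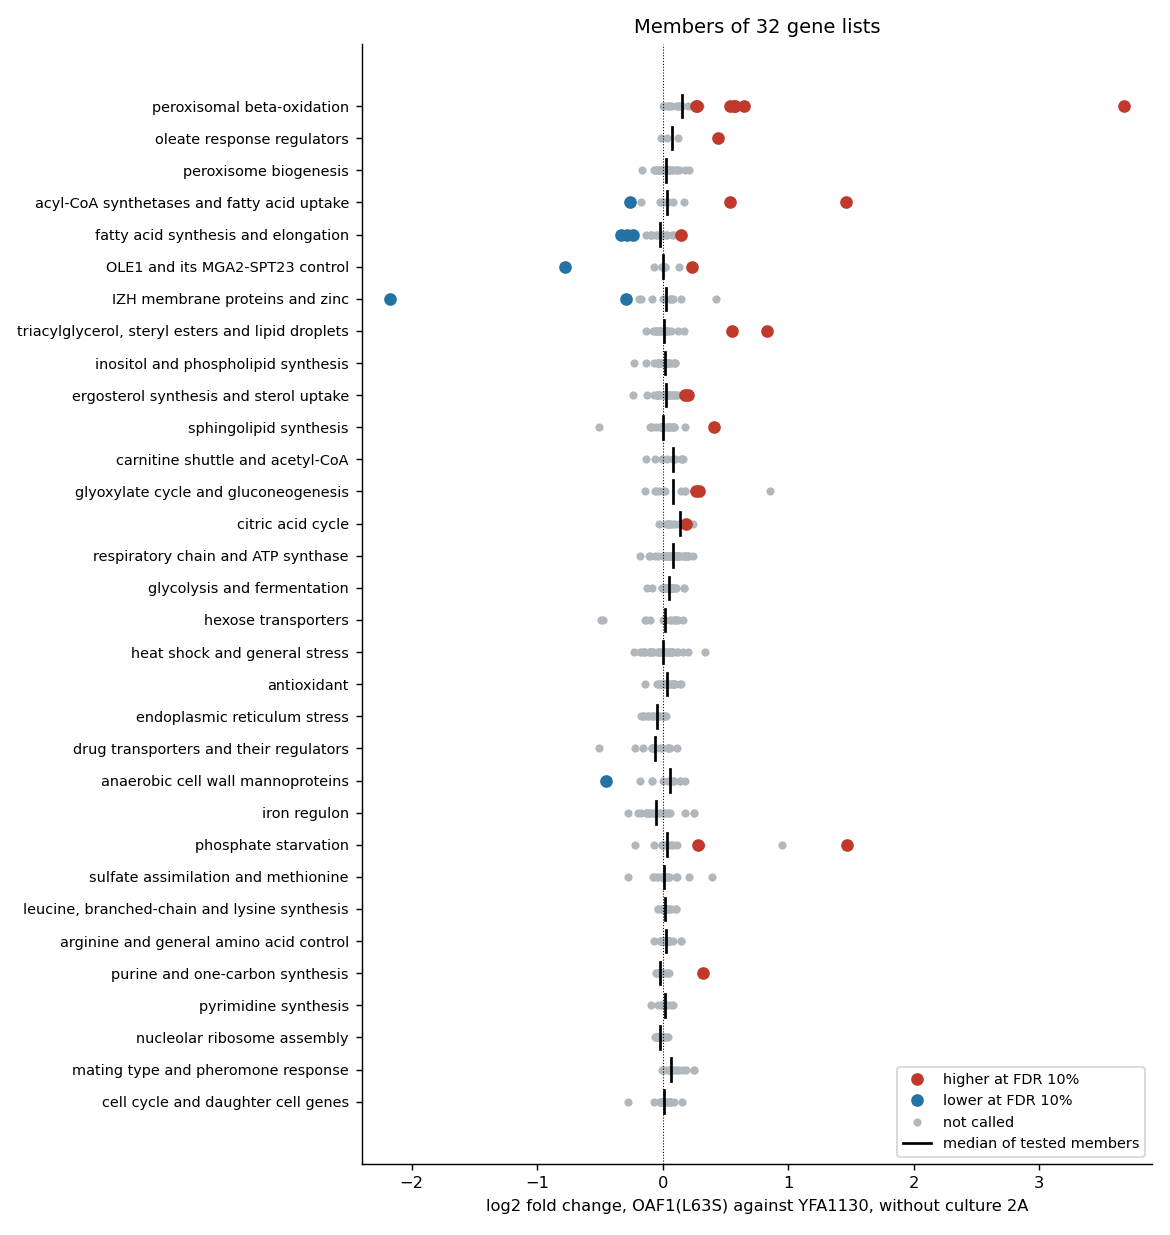
Log2 fold change without culture 2A of each tested member of the 32 gene lists, called members filled, with the median of each list as a bar. Beta-oxidation has 7 of 21 members called higher and none below 0, and the medians of the other lists lie between -0.06 and 0.13.

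Over the 32 lists, 629 distinct genes were tested. Of them 21 were called higher (0.665% of all genes) and 8 lower (0.595%) without culture 2A. No call was made in 18 lists, with medians between -0.06 and 0.08 over 401 entries. Beside those already given they were the carnitine shuttle, hexose transporters, heat shock and general stress, antioxidant genes, endoplasmic reticulum stress, drug transporters, the iron regulon, sulfate assimilation, branched-chain and lysine synthesis, the general amino acid control, pyrimidine synthesis, nucleolar ribosome assembly, mating and the cell cycle. PDR5, a drug efflux pump, was called lower at -0.24 with all libraries (adjusted p = 0.0987) and not without culture 2A (-0.22, adjusted p = 0.139). Among cell wall mannoproteins TIP1 was the single call of 12, in the lower direction (0.595% of all genes). It was at 358, 360.2, 297, 338 and 633 CPM against 454, 527, 469, 479 and 474, and it fell by 0.46 (standard error 0.047, adjusted p = 2e-05). In purine synthesis IMD2, an IMP dehydrogenase, rose by 0.32 (standard error 0.036, adjusted p = 3.58e-05; 0.665% of all genes were higher), and the other 20 genes of that list had no call. Its counts were not whole in 25 of 25 libraries.

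Outside the lists, 17 genes were called higher (0.665% of all genes) and 26 lower (0.595%) without culture 2A. PRM7 and BSC1, which lie beside each other on chromosome IV (381985 to 384081 and 384601 to 385587), rose by 0.94 (standard error 0.096, adjusted p = 1.87e-05) and 0.85 (standard error 0.096, adjusted p = 4.36e-05). PRM7 was at 169, 169, 84.4, 183 and 112 CPM against 54.3, 70.0, 74.8, 95 and 111. The groups overlapped through culture 2B, of harvest batch 1, and BSC1 overlapped in the same library. Within that harvest batch PRM7 was nevertheless higher in culture 2B than in culture 1A. TPO4, a polyamine exporter, rose by 0.89 (standard error 0.108, adjusted p = 8.97e-05) with broad overlap, from 105 to 228 CPM without culture 2A against 35.1 to 189. YGR035C and YHR140W, of unknown function, rose by 0.95 and 0.97 (adjusted p = 0.000124 and 0.00118). YGR035C was at 7.57, 8.91, 8.42, 11 and 4.2 CPM against 3.07, 4.72, 4.72, 6.48 and 4.55. YJL213W rose by 0.59 (adjusted p = 0.0361) and was called in 1 of 9 fits that each left out a library. Chosen after their values were seen, MRX3 and TMA17 rose by 0.43 and 0.48 (adjusted p = 0.0124 and 0.000783). TMA17 encodes a chaperone for proteasome assembly.

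The falls outside the lists included BIO2, the biotin synthase that makes the cofactor of Acc1. BIO2 was at 140.4, 157, 95.4, 162 and 289 CPM against 186, 352, 273, 315 and 195, and it fell by 0.85 (standard error 0.181, adjusted p = 0.0249). The groups did not overlap without culture 2A, but YFA1131 ranged from 72 to 520.2 CPM around both. INA1 was at 243, 267, 153, 304 and 610.4 CPM against 358, 386, 441, 504 and 549, a fall of 0.82 (standard error 0.142, adjusted p = 0.00364). GDH3, a glutamate dehydrogenase on the chromosome of OAF1, was at 6.14, 6.55, 5.50, 5.07 and 13.1 CPM against 9.13, 10.2, 8.77, 12.5 and 8.92. It fell by 0.71 (standard error 0.143, adjusted p = 0.0149). It was the only call among 81 genes tested on chromosome I, close to the 1.26% called among all genes. FLC2, the neighbour of OAF1 at 45899 to 48250, had a log2 fold change of -0.07 (adjusted p = 0.919). YGL039W, an aldehyde reductase, fell by 0.31 (standard error 0.059, adjusted p = 0.009), and YDR124W and YER188W fell by 0.43 and 0.65 (adjusted p = 0.0586 and 0.0155).

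Several falls lay near chromosome ends or in repeats. COS10, COS1 and COS8 belong to a subtelomeric family whose products sort membrane proteins for degradation. COS10, on chromosome XIV from 779916 to 781040, was at 9.98, 8.48, 7.0, 10.2 and 26.6 CPM against 15.4, 15.6, 18.1, 20.9 and 17.3, a fall of 0.88 (standard error 0.114, adjusted p = 0.000156). COS1 and COS8 fell by 0.62 (adjusted p = 0.00563) and 0.58 (adjusted p = 0.00346), and their counts were not whole in 25 of 25 libraries, so reads of other family members can enter their values. Of 60 transposon genes tested, 2 were called higher (0.665% of all genes) and 10 lower (0.595%), with a median of -0.11 against 0.00 for all genes. For the pair called higher, which were near 0 and had identical counts, no fold is given. Of 18 genes of Y' elements, 3 were called higher (0.665% of all genes) and 0 lower (0.595%) without culture 2A. With all libraries 3 were higher (0.56%) and 2 lower (0.613%). Copies of these repeats share reads, and the number of copies in each strain was not measured.

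The strains were not spread evenly over the 3 harvest batches. Without culture 2A, harvest batch 1 held culture 2B and the wild-type culture 1A, harvest batch 2 held cultures 2D and 1D, and harvest batch 3 held cultures 2E and 2F against 1E, 1F and 1G. Log2 ratios of levels were therefore also taken within each batch, as values with no test. Of the 48 genes named by the rule, 43 had the same sign in all 3 batches, and of the 30 named for the size of their change 29 did. The direction of those 30 was part of how they were chosen. PEX11 had ratios of 0.62, 0.64 and 0.64, ANT1 0.59, 0.49 and 0.60, EEB1 1.09, 0.95 and 0.70, and FAT3 0.96, 1.49 and 1.36. PHO84 ranged more, at 0.69, 1.82 and 1.68. On the lower side MGA2 had -0.97, -0.85 and -0.73 and IZH4 -1.63, -1.96 and -2.28. FAS1, ACC1 and FAS2 were lowest in harvest batch 1, at -0.67, -0.64 and -0.71, and came closer to 0 in harvest batch 3, at -0.25, -0.21 and -0.11. YDR124W was the gene among the 30 with a change of sign, at -0.27, 0.03 and -0.66. CIT2 had 0.77, 0.52 and -0.07.

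**Figure D5:**
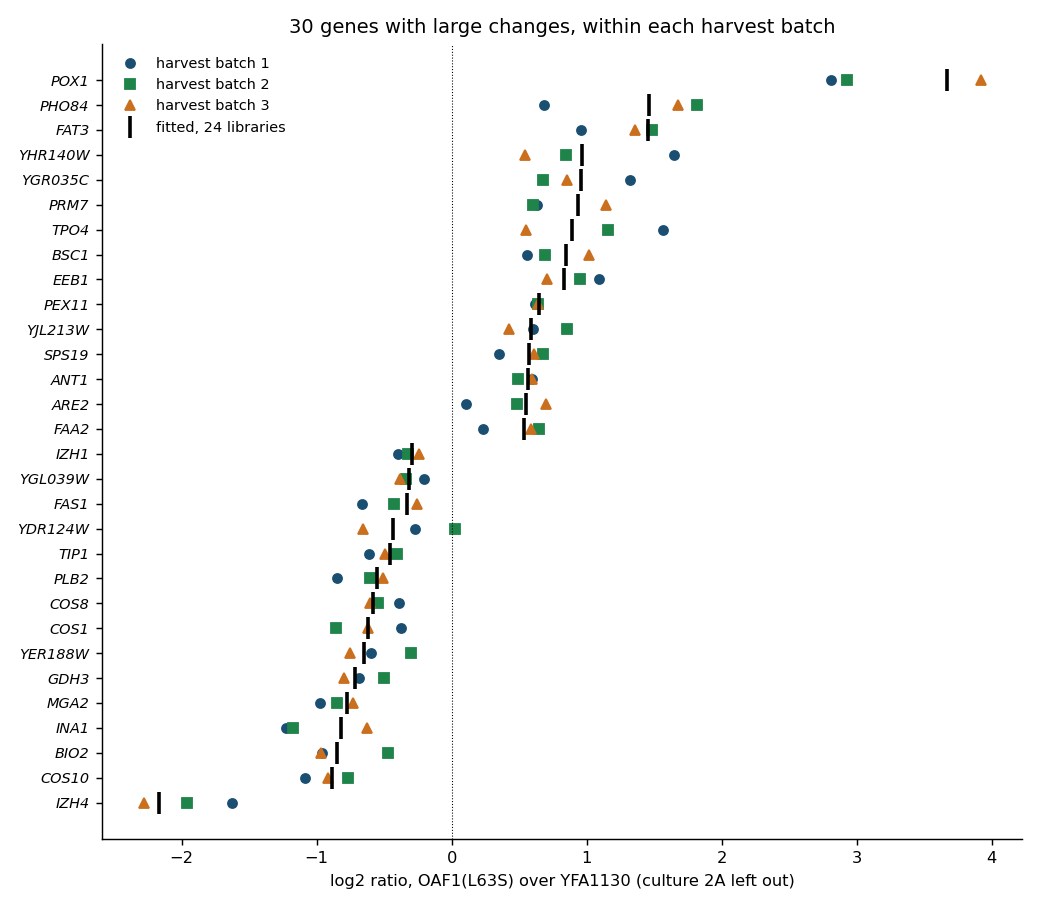
Log2 ratio of OAF1(L63S) to YFA1130 within each of the 3 harvest batches, without culture 2A, for the 30 genes named by size, with a bar at the fitted log2 fold change. In the plot 29 genes keep their sign in all 3 batches, and YDR124W, at -0.27, 0.03 and -0.66, does not.

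Against the second wild type YFA1131, with the same 4 OAF1(L63S) libraries and so not independent of the values above, 133 of 5717 genes were called (2.33%), 91 higher (1.59%) and 42 lower (0.735%). The wild types differed from each other at 5 genes by the same edgeR test (0.0875%), all lower in YFA1131, while 445 had an unadjusted p under 0.05. For OAF1(L63S) that number was 354 against YFA1130 and 697 against YFA1131. The genes of fatty acid oxidation, uptake and regulation given next were chosen among those already called against YFA1130. Against YFA1131 POX1 had 3.52, FAT3 1.30, PEX11 0.62 and ANT1 0.45. FAA2 had 0.61, SPS19 0.58, TES1 0.43 and PIP2 0.46, and all of these passed the FDR of 10%. EEB1 had 1.11, MDH2 0.65, PHO84 1.30, MGA2 -0.63, IZH4 -1.80 and FAS1 -0.25, also past it. MDH2 is 1 of the 5 genes at which the wild types differed, at -0.36 for YFA1131 against YFA1130 (adjusted p = 0.00555), and its value was 0.29 against YFA1130. PRM7 had 0.59 against YFA1131 and 0.94 against YFA1130, and both were called. Other genes were called against YFA1130 and not against YFA1131. YJL213W had 0.20 (adjusted p = 0.594), BIO2 -0.49 (adjusted p = 0.291), YER188W -0.34 (adjusted p = 0.324), YDR124W -0.02 (adjusted p = 0.975), ERG3 0.04 (adjusted p = 0.725), IZH1 -0.22 (adjusted p = 0.161), FAS2 -0.15 (adjusted p = 0.315) and IDH1 0.01 (adjusted p = 0.943). ACS2, which has the motif, had 0.11 (adjusted p = 0.167), and PHO12 had 0.11 (adjusted p = 0.606). For each gene, the value against YFA1130 less that against YFA1131 is the value of YFA1131 against YFA1130, which was tested. PRM7 and the genes listed as called only against YFA1130 did not pass the FDR of 10% in that test. Among them ERG3 had 0.16 (adjusted p = 0.235), YDR124W -0.41 and IDH1 0.17 (adjusted p = 0.238 each) and BIO2 -0.36 (adjusted p = 0.661). The absence of a call does not show that the values are equal.

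With only the 10 libraries of these strains less culture 2A in the fit, and harvest batch as the covariate, 38 genes were called and 30 of them were also called in the fit of all strains. POX1 had 3.77 (adjusted p = 0.000392), EEB1 0.85 (adjusted p = 0.00133), MGA2 -0.82 (adjusted p = 0.00133), IZH4 -2.20 (adjusted p = 0.00131), and FAT3, PEX11 and ANT1 1.47, 0.64 and 0.58 (adjusted p = 0.00264 each). Of the 45 named genes called without culture 2A in the fit of all strains, 25 were called in this smaller fit and 20 were not. The 20 were YHR140W, TPO4, YJL213W, SPS19, ARE2, YER188W, YDR124W, FAS1, TES1, CIT2, FAA4, ACC1, FAS2, ACS2, OLE1, ERG8, ERG3, MDH2, IDH1 and PHO12, with values such as 0.59 for SPS19 (adjusted p = 0.109), 0.52 for ARE2 (adjusted p = 0.109), 0.88 for TPO4 (adjusted p = 0.714), -0.32 for FAA4 (adjusted p = 0.197), -0.40 for FAS1 (adjusted p = 0.508) and -0.30 for FAS2 (adjusted p = 1). Of the 30 genes named by size, POX1, FAT3, EEB1, PEX11 and ANT1 were called without culture 2A under all the alternative fits that tested them and with each further library left out.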

How the data were processed

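The deposited values are estimated counts, which the authors obtained with kallisto against the Ensembl transcriptome from single-end reads trimmed with Trimmomatic 0.38, in 25 libraries and without normalization. Of them 6.55% were not whole, and all were rounded. Whether strand was used in counting is not given in the sources used here. Genes with a count in every library were tested with edgeR 4.0.16 (R 4.3.3) by its quasi-likelihood test after TMM normalization. All 25 libraries were fitted together, with terms for genotype, for 3 kinds of batch (harvest, isolation of RNA, library preparation) and for 2 surrogate variables from sva 3.50.0, which follows the covariates of the study. P-values were adjusted by the Benjamini-Hochberg method over all genes. Batches were taken from the study's sample table. Samples were grouped by their labels, and p-values measure the spread between separate cultures of 1 strain each.

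Named genes were the 15 largest rises and 15 largest falls called both with and without culture 2A at a mean of at least 5 CPM in a strain, transposon and Y' genes excepted, every list member called in either fit, and 8 regulators and targets. Others were chosen after their values were seen. The members and lists were chosen with earlier results of these data known. The RNA isolation batches gave each OAF1(L63S) library a YFA1130 partner, and the correlation of their deviations from the strain means over 5713 genes was 0.05, 0.29, 0.01, 0.51 and 0.20 in batches 1 to 5. Total counts of the 25 libraries ranged from 9216531 to 14644996, and same-strain libraries differed beyond sampling noise, with a chi-square per degree of freedom of 5.28 to 41.1 over 20 pairs. Alternatives were DESeq2 1.42.0, other count filters, fewer terms, other controls and each library left out. Sequences and coordinates are from the sacCer3 reference (R64), and 142 tested IDs had no entry in it.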

Additional observations from a re-analysis of the deposited data

Results flagged for a closer look

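Each gene named by the rule was examined in both strains for a library far from the others of its group, 96 groups in all, and 12 stood out. Chance gives about 1 in 20 for a single group, but these groups are not independent. They share libraries, and most of the genes were named for a difference between the strains. The 12 are therefore not separate events, and their number was not tested. Of the 12, 11 were in OAF1(L63S) culture 2A. It was the highest library for IZH4, at 47.6 CPM against 2.63 to 3.67, MGA2, at 289 against 101 to 128, COS10, at 26.6 against 7.0 to 10.2, GDH3, at 13.1 against 5.07 to 6.55, TIP1, at 633 against 297 to 360.2, YGL039W, at 78.1 against 36.7 to 40.2, and IZH1, at 113 against 67.8 to 69.9. It was the lowest for POX1, at 1.58 CPM against 17 to 22.8, EEB1, at 243 against 414 to 465, PIP2, at 57.5 against 72.3 to 75.8, and SUR1, at 68.3 against 91.5 to 99.9. In the wild type, YFA1130 culture 1A had SPS19 at 12.6 CPM against 5.78 to 7.55 in the others. Outside the libraries compared, POX1 was at 28.4 CPM in OLE1(FAR) culture 3C, where the other 4 libraries of that label had 0.419 to 2.00.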

How the results depend on the processing

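The number of genes called depended on the terms of the fit. With all libraries (67 genes) it was 10 with no surrogate variables, 3 with genotype only, 4 with only both strains and harvest batch, 0 with only both strains and genotype (92 at an unadjusted p under 0.05), 239 with YFA1131 and 141 with both wild types as the control. Without culture 2A (72 genes) it was 22, 16, 38, 30, 133 and 120 in the same fits. Without OLE1(FAR) culture 3C as well, 70 and 88 genes were called. DESeq2 called 63 and 65 genes, and with no replicate block, the RNA isolation batch being left out, 72 and 73 were called. With each library left out in turn, 43 to 72 and 14 to 60 genes were called, the lowest without YFA1130 culture 1G (14) and OAF1(L63S) cultures 2B and 2E (21 each). OAF1, near 0 throughout, turned to -0.0085 with no surrogate variables. With each library left out it ran from -0.021 to 0.049, and from -0.016 to 0.065 without culture 2A, the lowest in each case without culture 2E. CIT2 had -0.033 with genotype only and -0.034 with only both strains and genotype, and IDH1 had -0.046 against YFA1131, all with all libraries. Under the alternatives, values of the 48 named genes and the numbers called in 3 of the gene lists were set beside the main fit. Each gene or list was compared once for every alternative fit or library left out that tested it. With all libraries 834 of these comparisons stayed the same. For a gene this means the same direction and side of the threshold, and for a list a similar number called. Of the comparisons of single genes, 241 lost the call, 24 gained it and 5 changed sign. A further 17 comparisons of lists did not keep a similar number. Without culture 2A, 734 comparisons stayed the same in this sense. Of those of single genes, 310 lost the call, 4 gained it and 1 changed sign, and 21 comparisons of lists did not keep a similar number. The causes were not tested. Genes under about 5 CPM rest on few reads.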
